A study of Mus musculus with 8 samples.

Results

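The Rab GTPases were examined in bone marrow-derived macrophages (BMDM) cultured with bilirubin or vehicle. Members were all rows of the gene count table whose symbol is Rab followed by 1 or 2 digits and at most 1 letter, which gave 59 of 53819 gene rows. Another 18 symbols that begin with Rab and a digit were left out because they have longer names or are pseudogenes. Of the 59 members, 44 had enough counts to be tested, among 13722 tested genes.

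Bone marrow came from 4 female BALB/cJ mice aged 8 weeks, and the labels name no genetic modification. The marrow was differentiated for 5 days with 25 ng/mL M-CSF, the growth factor of the macrophage lineage, so the cells were macrophages raised in a dish and not tissue macrophages. A vehicle (DMSO) culture and a culture with 2.5 µM bilirubin, the end product of heme breakdown, were then kept for 48 h from each mouse. This gave 8 poly-A RNA libraries, 4 per group, and both cultures of a mouse carry the same number.

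Rab GTPases are small proteins that mark the membranes of a cell. A guanine nucleotide exchange factor (GEF) loads a Rab with GTP and places it on its membrane, where effectors bind it to tether, move and fuse vesicles. A GTPase-activating protein (GAP) turns it off again, and GDI proteins carry the inactive form through the cytosol. In macrophages different Rab proteins follow each other on a phagosome as it matures into a compartment that digests its cargo, while others return receptors to the surface or release granules.

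Rab proteins are anchored by lipids that the Rab prenyltransferase attaches to cysteines at their end, beside the GTP-binding domain common to the family. The end of the coding sequence is shown here because it holds these cysteines and sets members apart. A cysteine codon (TGT or TGC) stood among the last 4 codons before the stop codon in 56 of the 59 members. Each was read from the transcript with the highest vehicle TPM among those whose full coding sequence is in the reference. This was the gene's highest transcript in 53 members and a lower one in 5 (*Rab8a*, *Rab11a*, *Rab12*, *Rab23* and *Rab44*), and for *Rab39b* the transcript was at 0 TPM in vehicle cultures. In 20 members it was a pair of cysteine codons split by another codon and followed by the stop, in 15 it was a pair directly before the stop, and in 13 the first of the last 4 codons was the only cysteine codon of these. A pair followed by a pair of other codons closed 5 members, and 3 members had another arrangement. No cysteine codon was found in the last 4 codons of the transcripts read for *Rab11a*, *Rab18* and *Rab26*. That of *Rab11a* was a minor transcript with 10.1% of the gene's vehicle TPM and 153 codons, against a median of 214 codons over the members. The *Rab18* transcript had 194 codons and 48.35% of the gene's vehicle TPM, and *Rab26* had 0 to 7 counts per library. Lower transcripts of these genes were not read, so the genes may still code a cysteine end. The following lines give the last 30 coding bases of 9 members that the results turn on, 5′ to 3′ on the coding strand, with cysteine codons in capitals and the stop codon last. Positions are those of GRCm39, and each stretch lies in 1 coding exon. *Rab10* is at chr12:3299787-3299816 (minus strand), *Rab1a* at chr11:20174816-20174845 (plus), *Rab7* at chr6:87977417-87977446 (minus), *Rab27a* at chr9:73002709-73002738 (plus), *Rab5c* at chr11:100606873-100606902 (minus), *Rab20* at chr8:11503997-11504026 (minus), *Rab37* at chr11:115051537-115051566 (plus), *Rab11b* at chr17:33966642-33966671 (minus) and *Rab8a* at chr8:72933952-72933981 (plus).
Rab10: gtgacgggctggaagagcaagTGCTGCtga
Rab1a: gtcaagcagtcaggtggaggcTGCTGCtaa
Rab7: aaggcctccgcagaaagcTGCagtTGTtga
Rab27a: gagaaggagaaggggttgTGTggcTGTtga
Rab5c: gccagccggagccagTGCTGCagcaactga
Rab20: aaacagactagatccgggTGTTGTgcctaa
Rab37: aagcgctccagcTGCTGCtcctttgtgtga
Rab11b: aacaagctgcagTGCTGCcagagcctgtga
Rab8a: accagcttcttccggTGCagtctcctgtga
*Rab10* and *Rab1a* thus end in a cysteine pair, and *Rab7* and *Rab27a* in a split pair. In *Rab5c*, *Rab20*, *Rab37* and *Rab11b* a pair is followed by other codons, and *Rab8a*, read from a transcript with 26.5% of its vehicle TPM, has a single cysteine codon.

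The total count per library ran from 34142781 to 47071714 (median 40742225), and the shallowest was the bilirubin culture of mouse 1. Mouse 1 also stood apart in the comparison: 1033 genes passed the test with all mice and 1910 without mouse 1, while 377 to 634 passed when any other mouse was left out. Macrophage markers were high in every library, with a summed level of 30590 to 30760 TPM in vehicle and 34430 to 38210 TPM in bilirubin cultures. TPM is the level per transcript length, as a share of a fixed total. *Lyz2* made up most of this sum, with means of 25990 TPM in vehicle and 32050 TPM in bilirubin cultures. Of the 8 macrophage markers, 4 rose (*Lyz2*, *Adgre1*, *Itgam* and *Cd14*). The other 4 did not pass and had negative log2 fold changes: *Cd68* -0.16, *Mertk* -0.15, *Fcgr1* -0.20 and *Csf1r* -0.015. *Cd68* and *Mertk* were lower in 4 of 4 mice. Of the 8 neutrophil markers, *S100a8* rose by 1.07 on the log2 scale and set most of the list's sum (52.5 to 63.6 against 91.6 to 148 TPM). The defining neutrophil gene *Ly6g* had 0 to 3 counts and *Retnlg* had 0. Markers of dendritic, lymphoid, mast and red cells were at or near 0, with at most 22 counts for any of them. The 6 stromal and endothelial markers summed to 2.16 to 4.31 TPM in vehicle and 1.21 to 3.78 TPM in bilirubin cultures. The part of these shifts in the values below was not tested. In bulk RNA, fewer cells of a type and less RNA per cell cannot be told apart.

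The Rab genes were present over a wide range of levels, and a few of them made up most of the family's transcripts. In vehicle cultures the members summed to 3853 ± 28.2 TPM (SD, n = 4). *Rab7*, which drives fusion of late endosomes and phagosomes with lysosomes, was the highest, at 709, 713, 717 and 721 TPM in mice 1 to 4, and held 18.6% of the sum. The 3 highest members held 37.9% and the 10 highest 67.9%. *Rab5c*, an early endosome Rab that directs fusion of endocytic vesicles, stood at 347 ± 3.11 TPM (SD, n = 4). *Rab14*, which acts between the Golgi, recycling endosomes and young phagosomes, was at 237 ± 10.7 TPM. *Rab1b* and *Rab1a*, which carry cargo from the endoplasmic reticulum (ER) to the Golgi, were at 198 ± 6.22 and 197 ± 6.69 TPM, a difference smaller than their spread. *Rab31*, of the trans-Golgi and endosomes, followed at 158 ± 3.69 TPM and *Rab8a*, of traffic to the surface, at 144 ± 9.43 TPM. *Rab11b*, of recycling endosomes, at 113 ± 3.95 TPM and *Rab2a*, of the Golgi, at 110 ± 1.75 TPM differed by less than their spread.

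The place of *Rab11a*, the classical Rab of recycling endosomes, depended on the measure. It was the second highest by TPM, at 396 ± 19.9 (SD, n = 4), but 16th by CPM, the count scaled to library size but not to length. Its leading transcripts are short, with lengths of 595, 397 and 508 bases and shares of 41.8%, 29.5% and 11.0% of the gene's TPM in vehicle cultures. Of the 10 highest members by TPM, 7 were also among the 10 highest by CPM.

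By compartment, Rabs of recycling endosomes and the surface held 31.8% of the family's TPM in vehicle cultures, those of late endosomes and lysosomes 27.6%, those of early endosomes and phagosomes 19.0% and those of the ER and Golgi 18.5%. Rabs of secretory granules held 1.30%, and 5 members without a set compartment 1.79%. In bilirubin cultures the shares were 31.8%, 28.1%, 18.7%, 18.5%, 1.21% and 1.71%. The sum of all members was 3738 ± 161 TPM (SD, n = 4) with bilirubin. Its range of 3627 to 3973 TPM took in the vehicle range of 3831 to 3891 TPM. No bilirubin sum lay within the vehicle range, however. That of mouse 1 was above every vehicle sum, and those of the other mice were below every vehicle sum. The bilirubin mean was below the lowest vehicle sum. This difference was not tested.

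**Figure D1:**
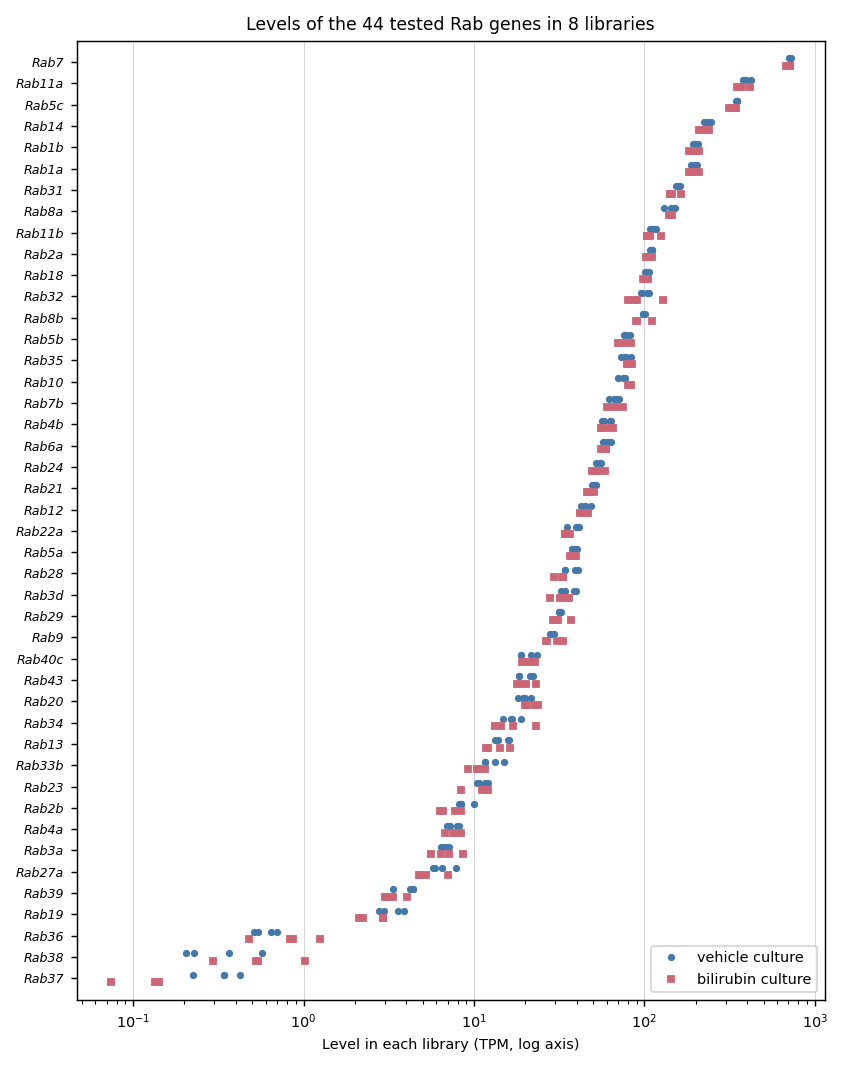
Level of each of the 44 tested Rab genes (rows, ordered by vehicle mean) in TPM on a log axis; each circle is a vehicle culture and each square a bilirubin culture. Levels run from *Rab7*, with a vehicle mean of 715 TPM, to *Rab37*, with 0.333 TPM, and the vehicle and bilirubin symbols lie close together in most rows.

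Genes that share a number code close relatives, and the ratios of their levels were compared within each library. *Rab7* stood 10.1 to 11.6 times above *Rab7b* in vehicle cultures and 9.60 to 11.8 times in bilirubin cultures, by TPM. *Rab5c* exceeded *Rab5a* by 8.62 to 9.28 times with vehicle and 8.31 to 9.23 times with bilirubin, and it exceeded *Rab5b* by 4.27 to 4.56 and 4.12 to 4.73 times. *Rab11a* exceeded *Rab11b* by 3.37 to 3.62 and 3.33 to 3.61 times, *Rab8a* exceeded *Rab8b* by 1.31 to 1.53 and 1.31 to 1.61 times, and the ratio of *Rab1b* to *Rab1a* was 0.957 to 1.04 and 0.961 to 1.05. The ratio of *Rab2a* to *Rab2b* was 11.2 to 13.6 with vehicle and 13.1 to 16.3 with bilirubin. The ranges overlapped between the groups in all of these pairs. By CPM, which is not scaled to length, *Rab8b* was above *Rab8a* in vehicle cultures (290 and 133). *Rab11a* and *Rab11b* were nearly equal by CPM (111 and 112.5), so these ratios depended on the measure. In *Rab8a* a transcript of 542 bases held 73.3% of the gene's vehicle TPM but 19.1% of its counts.

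The 15 members that were not tested had 0 to 20 counts in any library. The highest was *Rab42*, with 3 to 20 counts, and the lowest were *Rab27b* and *Rab39b*, with 0 to 1 count. Many are known for epithelial, neuronal or secretory cells: *Rab17* (0 to 3 counts) and *Rab25* (0 to 5) in epithelia, *Rab3b* (0 to 4), *Rab3c* (0 to 5), *Rab6b* (0 to 11) and *Rab9b* (0 to 10) as low relatives of genes that were well detected here, and *Rab26* (0 to 7) and *Rab44* (0 to 4) in granules. *Rab15*, *Rab30*, *Rab33a* and *Rab40b* did not exceed 9 counts.

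The bilirubin cultures were then compared with the vehicle cultures of the same mice, which asks whether bilirubin moved the Rab genes. Bilirubin raised 1 of the 44 tested members, *Rab10*, and lowered none (edgeR's quasi-likelihood test with mouse in the model, adjusted over all tested genes, threshold 0.05). That is 2.27% of the members, while 7.53% of all tested genes passed, 4.49% higher and 3.04% lower. At an unadjusted p under 0.05, 4 members passed (*Rab10*, *Rab37*, *Rab27a* and *Rab20*), 9.09% of them, against 20.8% of all tested genes. The median log2 fold change of the members, bilirubin over vehicle, was -0.008, and that of all tested genes -0.002. In the single mice the members' median was -0.008, -0.026, -0.039 and -0.013. Without mouse 1 it was -0.031, and 2 members passed, *Rab10* and *Rab20*. Leaving out any of the other mice left no member past the threshold.

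The intervals bounded the changes closely for most members. The 95% interval of the log2 fold change lay within 0.25 of 0 in 31 of the 44 members (70.5%), and 47.6% of all tested genes had such an interval. Level is part of that share: above a log2 CPM of 4 on average, 29 of 32 members had such an interval (90.6%), and 78.2% of all 7580 genes did. Of these 32 well-measured members 1 passed the test (3.12%), against 9.95% of all such genes. The direction was the same in all 4 mice for 12 members (27.3%), against 28.4% of all tested genes, and the CPM of the groups did not overlap for 3 members (*Rab10*, *Rab37* and *Rab7*; 6.82%), against 10.6%. A change of at least 1 on the log2 scale was seen in 1 member, *Rab37*, and in 1.96% of all tested genes.

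**Figure D2:**
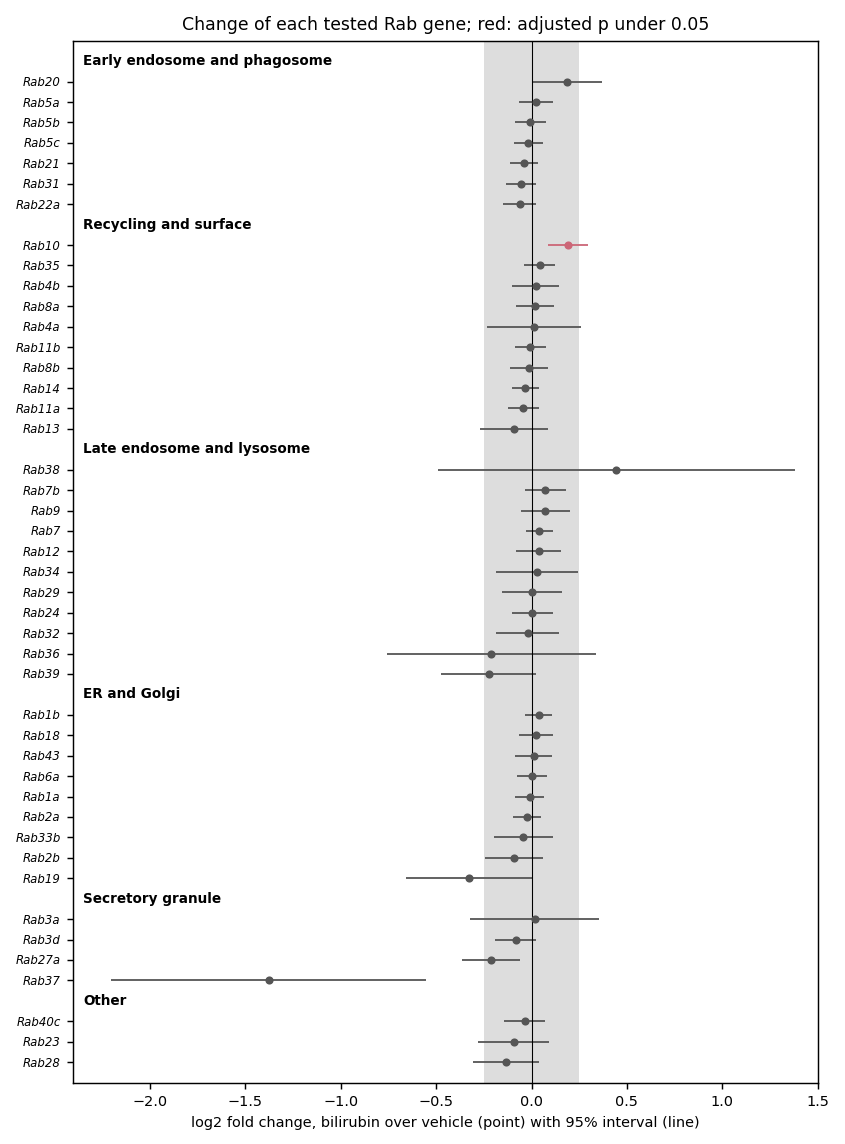
Fitted log2 fold change, bilirubin over vehicle (x axis), of each tested Rab gene grouped by compartment, with its 95% interval; the grey band spans 0.25 on each side of 0 and red marks an adjusted p under 0.05. *Rab10* is the single red point, most intervals lie within the band, and the widest belong to *Rab37*, *Rab38* and *Rab36*, which had few counts.

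Among the 10 tested Rabs of recycling endosomes and the surface, *Rab10* rose. Rab10 guides vesicles to the plasma membrane, is a substrate of the kinase Lrrk2, and in macrophages takes part in bringing the receptor TLR4 to the surface. *Rab10* (ENSMUSG00000020671, chromosome 12, 3297425 to 3360026, minus strand) was at 163, 163, 161 and 151 CPM in the vehicle cultures of mice 1 to 4 and at 168, 189, 184.5 and 187 CPM in their bilirubin cultures. The lowest bilirubin value, in mouse 1, was above the highest vehicle value. The means were 159.5 ± 5.59 and 182 ± 9.45 CPM (SD, n = 4), and the log2 fold change was 0.19 (SE 0.045, 95% interval 0.088 to 0.295, adjusted p = 0.0393), or 14.2% higher (6.31% to 22.7%). Within mice the log2 difference was 0.047, 0.214, 0.197 and 0.307, so it was smallest in mouse 1 and had the same sign in 4 of 4.

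Per length the groups were likewise apart, at 76.8, 75.4, 74.5 and 70.4 TPM with vehicle and 80.2, 83.5, 83.3 and 81.6 TPM with bilirubin. The adjusted p of *Rab10* was 0.0924 with an offset for transcript length. With mouse 2 left out it was 0.159, with mouse 3 left out 0.211, with mouse 4 left out 0.218 and with mouse 1 left out 9.12e-04. The noncoding gene *Rab10os* overlaps exons of *Rab10* on the opposite strand. It had 588 to 829 counts, against 5851 to 7748 for *Rab10*, and a log2 fold change of -0.06 (adjusted p = 0.659).

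The other 9 tested members of this compartment did not pass. Their log2 fold changes lay between -0.09 and 0.04, where *Rab35*, which sorts cargo from endosomes back to the surface, had 0.04 (95% interval -0.037 to 0.124) and *Rab11a* -0.04 (-0.123 to 0.037). *Rab14* was at 304, 288, 294 and 291 CPM in the vehicle and 294, 286, 282 and 289 CPM in the bilirubin cultures, lower in 4 of 4 mice, with a log2 difference of -0.063 at the most. *Rab8a* and *Rab8b*, which share many partners with Rab10, had 0.02 (-0.082 to 0.119) and -0.01 (-0.113 to 0.084). *Rab4a*, of rapid recycling, was measured least closely (0.01, -0.231 to 0.258).

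None of the 7 Rabs of early endosomes and phagosomes passed. *Rab20*, a Rab of maturing phagosomes, came nearest, at 16.8, 14.4, 15.4 and 15.6 CPM in the vehicle and 15.8, 16.6, 18.4 and 20.03 CPM in the bilirubin cultures. It was lower with bilirubin in mouse 1 and higher in the other mice, and the groups overlapped. Its log2 fold change was 0.19 (SE 0.079, 95% interval 0.005 to 0.369, adjusted p = 0.229). Without mouse 1 it was 0.28 with an adjusted p of 0.0139, and in no other alternative did *Rab20* pass.

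The *Rab5* genes, whose proteins start the maturation of endosomes, had intervals around 0. *Rab5a* had a log2 fold change of 0.03 (95% interval -0.064 to 0.115), *Rab5b* -0.006 (-0.089 to 0.078) and *Rab5c* -0.02 (-0.094 to 0.061). *Rab5c* was at 384, 392, 386 and 391 CPM in the vehicle and 377, 368, 390.5 and 399 CPM in the bilirubin cultures. *Rab31* had -0.05 (-0.133 to 0.025), and *Rab22a* and *Rab21*, of endosomal sorting, had -0.06 and -0.04. Both were lower in 4 of 4 mice, with adjusted p-values of 0.394 and 0.572.

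None of the 11 tested Rabs of late endosomes and lysosomes passed. *Rab7* was at 607, 602, 588 and 593 CPM in the vehicle and 614, 613, 616 and 615 CPM in the bilirubin cultures, groups that did not overlap. The difference was small, with a log2 fold change of 0.04 (95% interval -0.029 to 0.110, adjusted p = 0.524). By TPM the means lay in the opposite order, 715 ± 5.09 with vehicle and 706 ± 17.8 with bilirubin (SD, n = 4), and the groups overlapped. *Rab7b*, a Rab of lysosomes and of transport to the trans-Golgi, had a log2 fold change of 0.07 (-0.034 to 0.181), and so did *Rab9* (-0.057 to 0.201), which returns cargo from late endosomes to the Golgi.

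*Rab32*, which acts on lysosome-related organelles, had a log2 fold change of -0.02 (95% interval -0.186 to 0.144) that hid differences between mice. It was at 130, 121, 115 and 130 CPM in the vehicle and 158, 105, 111 and 120 CPM in the bilirubin cultures, higher in mouse 1 and lower in the others. Without mouse 1 the log2 fold change of *Rab32* was -0.13, with an adjusted p of 0.0517. *Rab29* and *Rab34* had their highest within-mouse difference in mouse 1 as well, 0.227 and 0.316 on the log2 scale. *Rab39*, reported on phagosomes and in autophagy, was at 7.82, 6.09, 7.59 and 7.88 CPM in the vehicle and 7.11, 6.31, 5.93 and 5.80 CPM in the bilirubin cultures. The values overlapped, and the log2 fold change was -0.22 (adjusted p = 0.298).

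*Rab38* and *Rab36*, which had 7 to 24 and 31 to 54 counts per library, were measured too loosely to show changes of the sizes below. In both genes the direction also differed between mice. The parts of depth and of the spread between mice were not tested. *Rab38*, known from melanosomes, had a log2 fold change of 0.44 with a 95% interval of -0.489 to 1.38 and adjusted p = 0.616, and 0.82 without mouse 1 (adjusted p = 0.276). *Rab36* had -0.21 with all mice and -0.33 without mouse 1 (adjusted p = 0.697 and 0.538). The mean CPM of *Rab36* was lower with bilirubin, 1.08 against 0.941, while its mean TPM was higher, 0.598 against 0.856. Both ranges of *Rab36* overlapped.

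The 9 tested Rabs of the ER and Golgi had no call, and 7 of them had log2 fold changes between -0.04 and 0.04. *Rab1a* was at 294, 304, 297 and 301 CPM in the vehicle and 306, 293, 290 and 298 CPM in the bilirubin cultures, with a log2 fold change of -0.01 (95% interval -0.087 to 0.066). *Rab1b* had 0.04 (-0.033 to 0.109), *Rab2a* -0.03 (-0.099 to 0.049) and *Rab6a*, of transport within the Golgi, 0.00 (-0.078 to 0.079). *Rab19*, a Golgi Rab, was at 3.47, 2.52, 2.68 and 3.25 CPM in the vehicle and 2.59, 2.13, 1.97 and 2.84 CPM in the bilirubin cultures. It was lower in each of the 4 mice, the groups overlapped, and its log2 fold change was -0.33 (-0.66 to 0.01, adjusted p = 0.255).

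The 4 tested Rabs of secretory granules included the largest fold change of the family, but none passed. *Rab37*, known from secretory granules and exocytosis in immune cells, had 21, 21, 13 and 19 counts in vehicle cultures and 6, 7, 4 and 8 in bilirubin cultures. Each bilirubin count was below every vehicle count. In CPM the means were 0.436 ± 0.106 and 0.166 ± 0.0458 (SD, n = 4). The log2 fold change was -1.38 (SE 0.36, 95% interval -2.20 to -0.55), with an unadjusted p of 0.00477 and an adjusted p of 0.0592. *Rab37* passed in none of the 12 alternatives in which it was fitted (edgeR, DESeq2 and limma), with adjusted p-values from 0.0547 to 0.240. Its transcripts were the least abundant of the tested members, at 0.333 TPM in vehicle cultures.

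*Rab27a*, which docks lysosome-related organelles and the vesicles released as exosomes, was at 14.1, 10.8, 10.5 and 11.7 CPM in the vehicle and 12.6, 9.05, 9.02 and 10.0 CPM in the bilirubin cultures. Mouse 1 was highest in both groups, the groups overlapped, and every mouse was lower with bilirubin, with log2 differences of -0.169, -0.247, -0.214 and -0.217. The log2 fold change was -0.21 (95% interval -0.363 to -0.061), with an adjusted p of 0.104. *Rab3d* and *Rab3a*, of regulated exocytosis, had -0.08 (-0.191 to 0.025) and 0.02 (-0.321 to 0.354). *Rab3a* was higher with bilirubin in mouse 1 (0.528) and lower in the others (-0.077, -0.204 and -0.186), and without mouse 1 its log2 fold change was -0.16 (adjusted p = 0.460). The median over the 4 secretory members was -0.15, the lowest of the compartments.

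**Figure D3:**
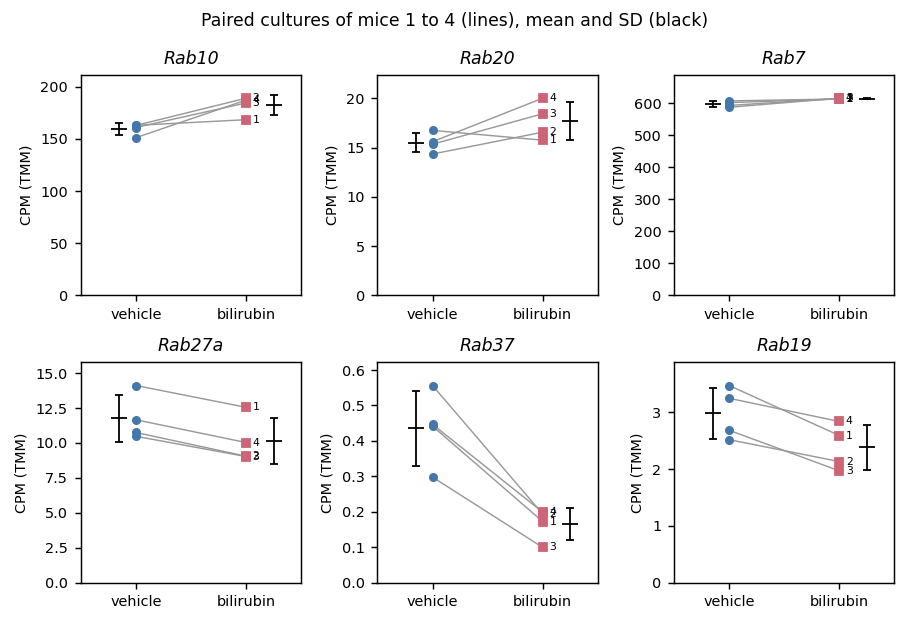
CPM (y axis from 0, scaled by TMM) of 6 Rab genes in the vehicle (circles) and bilirubin (squares) culture of each mouse, joined by lines and numbered by mouse; black marks give the group mean and SD. *Rab10* is higher with bilirubin in every mouse and least so in mouse 1, *Rab20* is lower in mouse 1 alone, *Rab7* moves little, and *Rab27a*, *Rab37* and *Rab19* are lower with bilirubin in every mouse.

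Of the 3 tested members in no set compartment, none passed. *Rab28*, known from cilia, had a log2 fold change of -0.13 (95% interval -0.305 to 0.040), most of it in mouse 1 (-0.427), and -0.04 without mouse 1 (adjusted p = 0.703). *Rab23*, of cilia and Hedgehog signalling, had -0.09 (-0.278 to 0.093), also lowest in mouse 1 (-0.338). *Rab40c*, part of a ubiquitin ligase, had -0.04 (-0.142 to 0.073).

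Genes of the proteins that load, unload, lipidate, phosphorylate or bind Rabs were examined next. Of 164 such genes listed, 153 were tested and 10 passed, 4 higher and 6 lower, while 7.53% of all tested genes passed. Their median log2 fold change was -0.02. In a model without the mouse 5 of them passed, and 5 passed with an offset for transcript length.

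Of 53 GEFs tested, 1 rose and 4 fell, where 7.53% of all tested genes passed. *Dennd2a*, of the DENN domain family of GEFs, was at 8.41, 8.64, 11.2 and 9.12 CPM in the vehicle and 12.6, 11.8, 18.0 and 14.7 CPM in the bilirubin cultures, groups that did not overlap. Its log2 fold change was 0.60 (SE 0.071, adjusted p = 0.00184). Its relative *Dennd2c* fell from 18.3, 19.7, 18.8 and 18.2 CPM to 14.0, 13.6, 13.7 and 14.1 CPM, also without overlap, with a log2 fold change of -0.43 (SE 0.059, adjusted p = 0.00305). Both passed in each of 13 alternatives. *Rin2*, a GEF of Rab5, fell by 0.17 on the log2 scale (adjusted p = 0.0205), *Sh3bp5*, a GEF of Rab11, by 0.14 (0.0393) and *Rab3il1*, a GEF of Rab8, by 0.29 (0.0401), each in 4 of 4 mice. These 3 did not pass in the model without the mouse, with the length offset, or without mouse 2, 3 or 4. With these mice left out in turn, the adjusted p was 0.110, 0.146 and 0.118 for *Rin2*, 0.173, 0.158 and 0.159 for *Sh3bp5*, and 0.173, 0.235 and 0.182 for *Rab3il1*. Without mouse 1 *Rab3il1* had a log2 fold change of -0.40 (adjusted p = 5.02e-05).

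Among 32 GAPs 1 passed, where 7.53% of all tested genes passed. *Tbc1d2*, which acts on Rab7, fell by 0.18 on the log2 scale (adjusted p = 0.0387). It was at 63.3, 62.1, 67.4 and 63.9 CPM in the vehicle and 52.8, 58.2, 60.7 and 55.6 CPM in the bilirubin cultures, without overlap. It passed in 8 of 13 alternatives, but not without mouse 2 (0.0697), mouse 3 (0.170) or mouse 4 (0.195), without the mouse in the model (0.0871) or with the length offset (0.104). No other GAP passed.

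The machinery that all Rabs share had no call among its 9 tested genes. The most abundant of them was *Gdi2*, which carries inactive Rabs, at 457 ± 8.09 CPM in vehicle and 469 ± 15.8 CPM in bilirubin cultures (SD, n = 4; log2 fold change 0.04, adjusted p = 0.576). *Rabggta* and *Rabggtb*, the subunits of the prenyltransferase that modifies the cysteines printed above, had -0.007 (95% interval -0.199 to 0.186) and 0.02 (-0.092 to 0.124). *Icmt*, which methylates prenylated cysteines, had -0.13 (-0.230 to -0.037) with an adjusted p of 0.107. Of the 4 enzymes that set Rab phosphorylation, none passed: *Lrrk2*, the kinase of Rab10, had -0.08 (-0.212 to 0.046), and *Ppm1h*, the phosphatase of the same site, -0.03 (-0.116 to 0.048).

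Effectors of early endosomes and of the recycling route gave 2 rises and 1 fall among 28 tested, where 7.53% of all tested genes passed. *Rab11fip1*, which binds Rab11 on recycling endosomes, rose from 20.6 ± 0.795 to 25.3 ± 1.18 CPM (SD, n = 4), a log2 fold change of 0.30 (adjusted p = 0.0166). *Exoc6b*, a subunit of the exocyst that tethers vesicles at the surface, rose by 0.18 (adjusted p = 0.0278). *Mical1*, an actin-oxidising enzyme that binds Rab8 and Rab10, fell from 63.7 ± 0.479 to 50.5 ± 6.19 CPM, a log2 fold change of -0.34 (adjusted p = 0.0169), with bilirubin values of 55.1, 55.2, 42.0 and 49.8 CPM. *Rab11fip1* passed in 10, *Mical1* in 11 and *Exoc6b* in 8 of 13 alternatives. *Rab11fip1* and *Exoc6b* did not pass without mouse 2 (adjusted p = 0.0731 and 0.130), mouse 3 (0.136 and 0.160) or mouse 4 (0.105 and 0.166), nor *Mical1* without mouse 3 (0.0616) or mouse 4 (0.0941). *Exoc6b* also did not pass without the mouse in the model (0.0703) or with the length offset (0.394).

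Of 17 tested genes listed as late endosome effectors, *Rilpl2* alone passed and rose, where 7.53% of all tested genes passed. Rilpl2 binds Rab8 and Rab10, grouped above with recycling endosomes and the surface, once Lrrk2 has phosphorylated them. It was at 40.4, 42.1, 44.9 and 40.7 CPM in the vehicle and 50.4, 50.7, 55.6 and 52.8 CPM in the bilirubin cultures, groups that did not overlap, with a log2 fold change of 0.32 (SE 0.04, adjusted p = 0.00212), and it passed in each of 13 alternatives. None of the 10 tested effectors of the Golgi and of secretion passed.

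**Figure D4:**
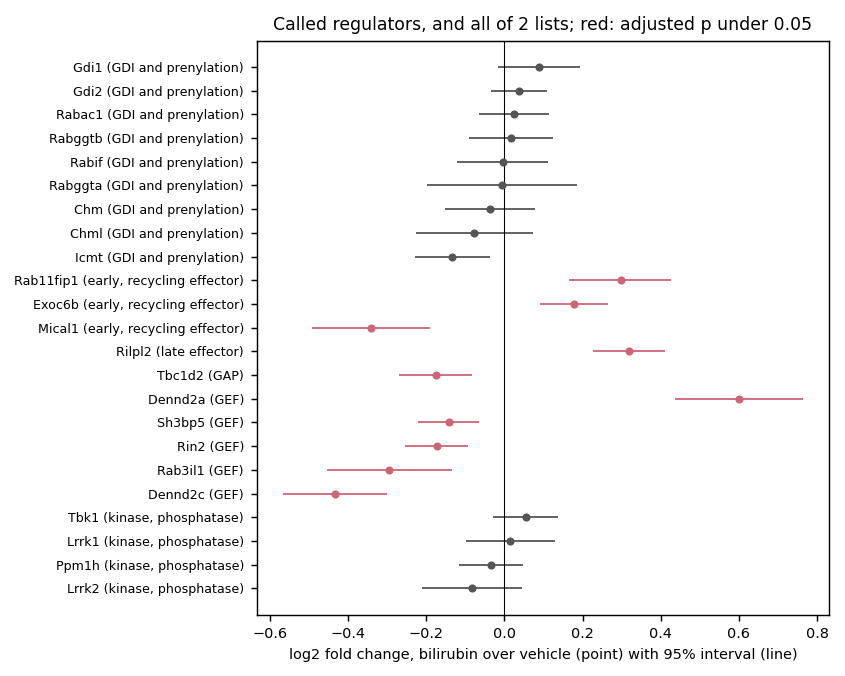
Fitted log2 fold change, bilirubin over vehicle (x axis), with 95% interval, for the 10 regulators and effectors with an adjusted p under 0.05 (red) and for all tested genes of the GDI and prenylation list and of the kinase and phosphatase list (grey). *Dennd2a* lies highest and *Dennd2c* lowest, and the grey intervals lie within 0.25 of 0.

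Transcript estimates gave a further view of the members. Of the 44 tested members, 6 have 1 transcript in the annotation used, and in 19, these 6 included, the leading transcript held over 90% of the gene's TPM in vehicle cultures. In 6 members (*Rab7*, *Rab7b*, *Rab11a*, *Rab18*, *Rab23* and *Rab36*) it held under 50%. Among the 38 members with several transcripts, the share of the leading transcript did not overlap between the groups in 1, *Rab2b* (2.63%), and in 2.53% of all tested genes with several transcripts. In *Rab2b*, of the Golgi, the share was 77.6%, 59.1%, 81.5% and 75.0% with vehicle and 86.2%, 96.6%, 98.2% and 99.3% with bilirubin, while the gene's log2 fold change was -0.09 (adjusted p = 0.510). Exons of *Rab2b* overlap those of *Tox4* on the opposite strand. These shares are model estimates and were not tested.

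**Figure D5:**
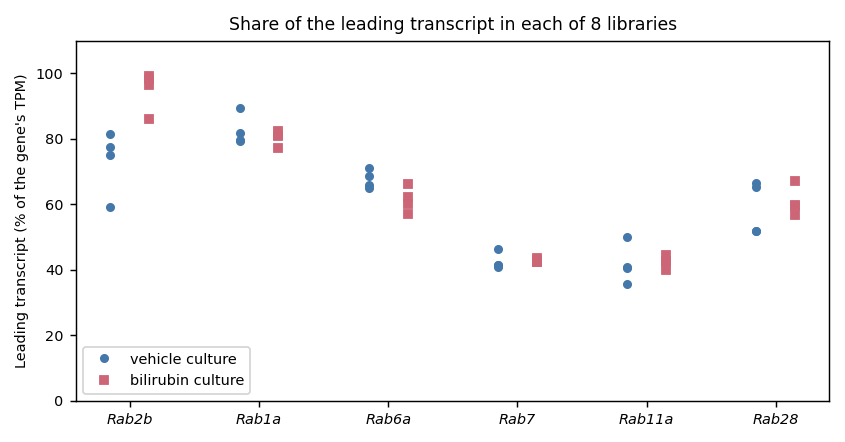
Share of the leading transcript in the gene's TPM (y axis, percent) for 6 Rab genes with several transcripts, in each vehicle (circles) and bilirubin (squares) culture. The groups are apart in *Rab2b* (up to 81.5% with vehicle, from 86.2% with bilirubin) and overlap in the genes beside it.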

How the data were processed

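RNA of 8 BMDM cultures was sequenced after poly-A selection. Reads were trimmed with Trim Galore 0.6.7 and Cutadapt 3.4, aligned with STAR 2.7.9a to GRCm39 and quantified with Salmon 1.10.1, per the submitters' processing notes and the study's methods. The authors deposited a gene table of estimated counts that were not normalized, and per library a table of 142434 transcripts with their estimated counts, TPM and effective lengths. TPM as deposited by the authors is scaled for effective length and sums to the same total in every library. Of the values in the gene table, 88.45% were whole within 0.01. The strand setting of the counting is not given in the sources used here, so reads of genes that overlap on opposite strands may not be told apart. Reads shared with a near-identical gene (*Rab7* and *Rab7-ps1*, *Rab11b* and *Rab11b-ps2*) or an overlapping one (*Rab43* and *Gm45140*) were split by Salmon's model, and values of these members are less certain.

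Rounded counts were tested with edgeR 4.0.16 under R 4.3.3 (quasi-likelihood test, TMM scaling, filterByExpr with a minimum of 10 counts and 15 in total), with mouse and treatment in the model and Benjamini-Hochberg adjustment over 13722 genes at a threshold of 0.05. CPM was scaled by TMM. Standard errors and 95% intervals were derived from the F statistic of each fold change. Gene TPM is the sum over transcripts. Positions and coding ends came from GRCm39 with the GENCODE annotation. The pairing comes from the labels, which tie both cultures of a number to a mouse. The deviations from the group means of a mouse's cultures had correlations of 0.108, 0.134, 0.108 and -0.0053 in mice 1 to 4. Those of different mice averaged -0.0279 and reached 0.0751. The value of mouse 4 was below that highest value, so for mouse 4 the pairing rests on the labels alone. Alternatives were a model without the mouse, DESeq2 1.42.0, limma 3.58.1 (voom and trend), other scalings and filters, a transcript length offset and each mouse left out. The procedure was also run on simulated counts. These held no differences between mice and planted changes larger than that of *Rab10*, so they do not bear on changes of that size.

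Members and gene lists were chosen with earlier results of these data known. Members named with values were those past the threshold, the 10 highest in vehicle TPM, the 6 largest changes not past the threshold, and their close paralogs. Of each regulator list up to 4 called genes were to be named. *Rab3il1*, the genes named from lists without a call, and the other members given values were chosen after their values were seen.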

Additional observations from a re-analysis of the deposited data

Results flagged for a closer look

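The CPM values of 32 of the members described in the text were searched, in each treatment group, for a value far from the others. Some described members, such as *Rab4a*, *Rab23*, *Rab29*, *Rab34* and *Rab40c*, were not searched. This made 64 groups, and chance gives such a value in about 1 in 20. In 4 groups such a value was found. *Rab39* was at 6.09 CPM in the vehicle culture of mouse 2, while the other vehicle cultures lay between 7.59 and 7.88 CPM. *Rab2b* was at 15.2 CPM in the same library, against 13.3 to 13.6 CPM, and *Rab5b* at 156 CPM, against 146.0 to 146.2 CPM. *Rab36* was at 1.24 CPM in the bilirubin culture of mouse 1, against 0.821 to 0.858 CPM.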

How the results depend on the processing

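The number of Rab genes past the threshold was 1 in the main analysis and in 8 of the 13 alternatives, and that one was *Rab10*. With a transcript length offset it was 0 in all and 0 higher, and with each mouse left out it was 0 to 2, in all and higher. No alternative gave a lower member. Of the regulators and effectors 10 passed in the main analysis, 4 higher and 6 lower. Without the mouse in the model (no replicate block) 5 passed, 2 of them lower, and with the length offset 5 passed, 2 of them lower. Without the filter on low counts 7 were higher. With each mouse left out, 3 to 21 passed, 2 to 5 higher and 1 to 16 lower, with 21 without mouse 1, 4 without mouse 2 and 3 without mouse 3 or mouse 4. The replicate block left the call of *Rab10* in place (adjusted p = 0.0429 without it). Over all tested genes, 686 passed without the block, 579 with the offset, and 1910, 634, 377 and 441 without mice 1 to 4, against 1033. No named value that passed changed its sign. Library size alone moved the median of the members to -0.035 and that of all genes to -0.028 on the log2 scale. At this depth the intervals of *Rab36*, *Rab37* and *Rab38* were the widest. The CPM filter left *Rab37* without a fit.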
